A study of Homo sapiens with 6 samples.

Results

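The genes described here are MITF and 9 genes of the melanosome, the pigment granule of melanocytes: TYR, TYRP1, DCT, PMEL, MLANA, GPR143, TRPM1, RAB27A and GPNMB. They were chosen by gene name from the deposited expression tables, where all 10 were found among 57914 genes. RNA was measured in A375, an established human melanoma cell line that is known to make little pigment. Staining was with Aldefluor, a substrate that turns fluorescent in cells with aldehyde dehydrogenase (ALDH) activity, and live cells were sorted into the 5% with the strongest signal (ALDH_High, 3 libraries) and the 5% with the weakest signal (ALDH_Low, 3 libraries). Both groups are untreated cells of the same line, grown in high-glucose DMEM with 10% FCS and 2 mM L-glutamine, and the labels name no difference between them but the sort gate. Stranded mRNA libraries were made from 500 ng of RNA. The labels do not say whether the 3 libraries of a group came from separate cultures, so p-values measure only the spread between these libraries, which may be technical.

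MITF is the basic helix-loop-helix leucine zipper factor that directs the melanocyte lineage. It binds short E-box sequences in the promoters of pigment genes, and its level in melanoma is known to vary between cell states. Among its known targets are the enzymes that turn tyrosine into melanin (TYR, TYRP1 and DCT) and the melanosome proteins PMEL, MLANA and GPR143. Others are the channel gene TRPM1, the small GTPase RAB27A, which carries mature melanosomes to the cell edge, and the glycoprotein GPNMB. GPNMB and RAB27A also serve lysosomes and secretory granules in many other cell types, whereas the 3 enzymes are largely restricted to pigment cells.

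The promoters of the pigment genes are shown because MITF binds there, at the M-box and related E-boxes whose core is CATGTG on one strand and reads CACATG on the other. A second E-box core searched was CACGTG. RefSeq sequences on GRCh38.p14 were available for 17 start sites of 9 genes, and none was found for PMEL. Each was searched over the 250 bases before the start. CATGTG was found on either strand at 7 of these 17 start sites, which belong to 6 genes, and CACGTG at 0 of them. Among 35116 RefSeq promoters of the same length, 9.42% held CATGTG, 1.15% held it at 2 or more places, and 6.34% held CACGTG. Both strands were searched, and the 2 cores share no overlapping match here. The 4 sequences below run 5′ to 3′ on the strand of the gene, end at the base before the start, and have each match in capitals. The enzyme gene TYR (chr11:89177625-89177874, plus strand), with matches beginning at positions -104 and -12 from the start, was near 0 in these cells, as were TYRP1 (chr9:12693135-12693384, plus strand, matches at -144 and -11) and the matching start of DCT (chr13:94479683-94479932, minus strand, matches at -215 and -134). GPNMB (chr7:23246525-23246774, plus strand, matches at -123 and -62) was the most abundant of the 10 genes per transcript.
TYR: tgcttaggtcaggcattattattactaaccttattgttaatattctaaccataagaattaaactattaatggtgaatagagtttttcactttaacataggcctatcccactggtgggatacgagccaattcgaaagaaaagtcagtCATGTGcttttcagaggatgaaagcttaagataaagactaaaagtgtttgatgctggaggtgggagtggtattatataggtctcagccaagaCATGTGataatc
TYRP1: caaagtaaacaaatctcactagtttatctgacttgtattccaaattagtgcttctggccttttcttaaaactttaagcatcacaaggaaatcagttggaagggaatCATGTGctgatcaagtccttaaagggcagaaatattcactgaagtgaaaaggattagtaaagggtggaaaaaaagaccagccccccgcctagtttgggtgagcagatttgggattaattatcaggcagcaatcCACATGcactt
DCT: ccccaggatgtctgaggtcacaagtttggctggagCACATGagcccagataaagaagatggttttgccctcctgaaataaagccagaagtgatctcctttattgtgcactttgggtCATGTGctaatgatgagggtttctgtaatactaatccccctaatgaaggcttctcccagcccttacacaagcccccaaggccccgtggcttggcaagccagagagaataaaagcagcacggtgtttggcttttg
GPNMB: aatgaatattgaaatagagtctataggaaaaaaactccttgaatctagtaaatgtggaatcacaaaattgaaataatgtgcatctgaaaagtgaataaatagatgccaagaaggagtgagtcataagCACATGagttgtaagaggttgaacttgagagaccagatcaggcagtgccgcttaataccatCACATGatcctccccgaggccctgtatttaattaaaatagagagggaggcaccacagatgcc

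GPR143 held CACATG at -61 and -33, and TRPM1 held it once at each of 2 start sites, at -8 and -56. The 3 start sites of MITF, the 5 of RAB27A and the start of MLANA held neither core in this window. Neither did the other start of DCT (chr13:94549407-94549656, minus strand). A match of 6 letters is a description of the sequence and not a binding site, and no match says only that these letters are not in these 250 bases. TYR, TYRP1, DCT, GPR143 and GPNMB each held 2 matches at a start site, and their RNA levels, given next, ran from the count floor to the highest of the 10 genes.

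Total counts per library lay between 26692868 and 37830603, and 24928 to 27841 genes had at least 1 count. On the first principal component (64.2% of the variance) the 2 groups separated, and on the second (14.5%) ALDH_High library 1 stood at 49.1 while the other ALDH_High libraries stood at -22.0 and -32.5. ALDH1A3, the isoform named in the title of the study, was higher in ALDH_High, at 683 to 1149 CPM (counts scaled to a fixed library total) against 345 to 420, with a log2 fold change of 1.32 (edgeR adjusted p = 0.000734). The melanoma lineage was present in every library: 8 markers summed to 1453 to 1787 TPM (transcript levels corrected for length) in ALDH_High and to 538 to 609 TPM in ALDH_Low, with SOX10 and S100B above 0 throughout. Of these 8 markers 6 were higher in ALDH_High, 1 (TFAP2A) was lower and 1 did not pass. Over all genes tested, 10.8% were higher and 9.83% lower. S100B had 36.9, 30.4 and 29.3 CPM in ALDH_High against 1.27, 0.602 and 3.16 CPM in ALDH_Low. S100A1 had 26.9, 33.6 and 29.1 CPM against 0.597, 0.569 and 2.26 CPM. Of the markers of other cells, PTPRC, CD3E and MS4A1 had 0 to 4 counts in all libraries, and the 8 white blood cell markers summed to 14.5 to 27.1 TPM against 50.2 to 63.2, of which CD68 made up 10.9 to 19.2 and 47.2 to 61.2 TPM. Of the 3 of these markers that were tested, CD68 and CD14 (log2 fold change, ALDH_High over ALDH_Low, -1.86 and -1.96) were lower in ALDH_High and LYZ (1.65) was higher (edgeR adjusted p = 0.000273, 0.0142 and 0.024). Keratinocyte markers summed to 98.5 to 132 against 99.6 to 124 TPM, fibroblast markers to 9.64 to 12.5 against 6.54 to 7.43 TPM, and endothelial markers to 2.89 to 3.02 against 0.501 to 0.614 TPM. Of 3 tested keratinocyte markers KRT5 was lower in ALDH_High (-3.63, edgeR adjusted p = 0.000898) and KRT14 and KRT10 did not pass, and 0 of 4 tested fibroblast markers passed. The endothelial sum was mostly KDR, at 2.38 to 2.82 against 0.105 to 0.293 TPM, which was higher (3.61, edgeR adjusted p = 5.8e-05), while PECAM1 and VWF (-0.77 and -0.19) did not pass. The part of these differences in the results below was not tested.

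Of the 10 genes, 3 were at the count floor, 2 were barely above it, 2 were low and 3 were expressed. A gene is at the floor of a group when each of its libraries has at most 3 counts. This is 0.0778 to 0.118 CPM depending on the depth of the library, and it covers counting error only because the reads carry no molecular identifiers. TYR (chr11:89177875-89295759, plus strand, GRCh38 and GENCODE release 44 as for all genes here), the enzyme of the rate-limiting step of melanin synthesis, had 0, 1 and 2 counts in ALDH_High libraries 1 to 3 and 2, 0 and 0 in ALDH_Low. MLANA (chr9:5890889-5910606, plus strand), the melanosomal antigen also called MART1, had 0, 0 and 3 counts in ALDH_High and 1, 3 and 0 in ALDH_Low. TRPM1 (chr15:31001065-31161160, minus strand), a cation channel of melanocytes, had 0, 1 and 3 counts against 1, 0 and 0. Each of the 3 was thus at the floor in both groups, with 5, 7 and 5 counts for TYR, MLANA and TRPM1 in all 6 libraries together, and no fold is given for them. The gene of the microRNA MIR211, which lies in TRPM1, and the tyrosinase pseudogene TYRL were listed at 0 counts in every library. These libraries were made from mRNA, so the 0 counts of MIR211 do not measure the level of the microRNA.

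The remaining enzymes were hardly more abundant. TYRP1 (chr9:12685439-12710285, plus strand), which acts late in eumelanin synthesis, had 2, 6 and 3 counts in ALDH_High and 3, 11 and 7 in ALDH_Low. DCT (chr13:94436811-94479682, minus strand), the dopachrome tautomerase, had 2, 5 and 7 counts against 4, 1 and 10. Both genes overlapped between the groups and had too few counts to be tested, so that a difference was not detectable at this depth. With the floor raised to 10 counts, DCT joined the genes at the floor in both groups, and TYRP1 lay under it in ALDH_High only. Together the 3 enzymes held 4, 12 and 12 counts in ALDH_High and 9, 12 and 17 in ALDH_Low, which also overlapped (exact two-sided permutation test on the sums in CPM, p = 0.4, smallest possible 0.1, n = 3 per group).

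PMEL (chr12:55954105-55973317, minus strand), the protein that forms the fibrils on which melanin is laid down, and GPR143 (chrX:9725346-9786297, minus strand), a receptor of the melanosome membrane, were low but passed the filter of the test. PMEL had 18, 5 and 13 counts in ALDH_High and 14, 19 and 14 in ALDH_Low. The lowest library was ALDH_High library 2, and the groups overlapped. Its log2 fold change, ALDH_High over ALDH_Low in all that follows, was -0.31 (95% interval -1.52 to 0.90, edgeR adjusted p = 0.747), and without ALDH_High library 2 it was 0.13. GPR143 had 9, 4 and 14 counts against 24, 9 and 13, again with overlap. Its log2 fold change was -0.68 (95% interval -1.85 to 0.49, edgeR adjusted p = 0.420). PMEL overlaps CDK2 on the opposite strand, which had 3159 to 4530 counts and a log2 fold change of -0.07. GPR143 overlaps TBL1X on the opposite strand, which had 2341 to 6802 counts and was itself lower in ALDH_High (log2 fold change -0.77, edgeR adjusted p = 0.00385). The library kit keeps the strand, but whether the counting used it is not given in the sources used here. A few counts from these neighbours therefore cannot be told apart from counts of PMEL and GPR143. The same limit holds for MLANA, which lies inside KIAA2026 on the opposite strand (433 to 711 counts). It also holds for RAB27A, which overlaps PIGB on the opposite strand (242 to 517 counts).

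**Figure D1:**
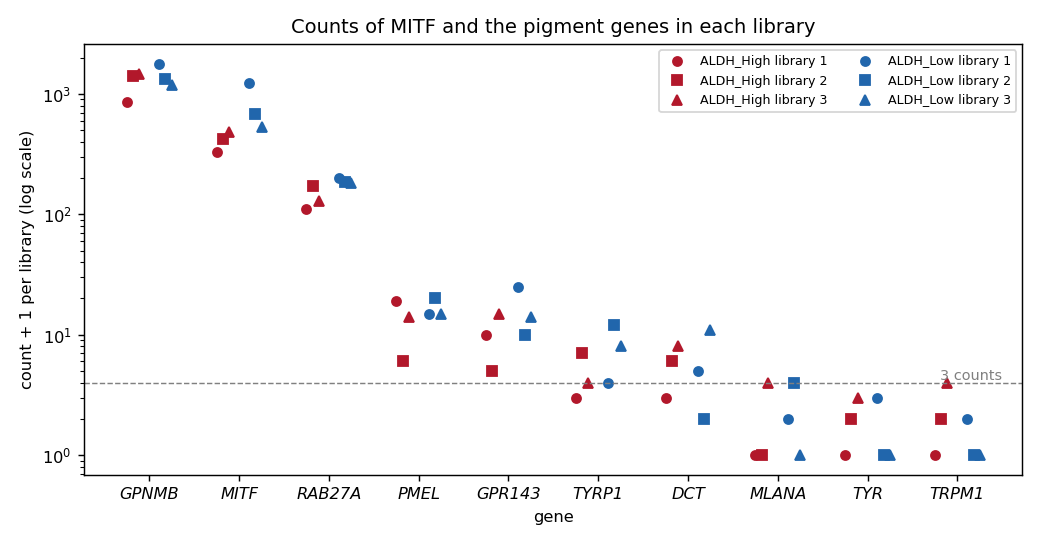
Estimated counts of the 10 genes in each of the 6 libraries, on a log axis of count + 1, with ALDH_High in red, ALDH_Low in blue and a dashed line at 3 counts. TYR, MLANA and TRPM1 lie at or under the line in all 6 libraries, while MITF, RAB27A and GPNMB lie above 100 counts in each.

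MITF was the only one of the 10 genes that passed the test, and it was lower in the cells with high ALDH activity. Its gene (ENSG00000187098) spans chr3:69739456-69968336 on the plus strand. It had 329, 419 and 478 counts in ALDH_High libraries 1 to 3 and 1235, 682 and 534 in ALDH_Low libraries 1 to 3. Scaled for depth, these were 13.0, 12.1 and 14.0 CPM against 32.0, 22.8 and 19.2 CPM. The 3 ALDH_High libraries lay close together, the 3 ALDH_Low libraries were all above them, and ALDH_Low library 1 was the highest. The means were 13.04 ± 0.944 CPM and 24.7 ± 6.62 CPM (SD, n = 3 each), and the log2 fold change was -0.92 (SE 0.19, 95% interval -1.35 to -0.50, edgeR quasi-likelihood adjusted p = 0.00667). In linear terms MITF was 1.90-fold higher in ALDH_Low (95% interval 1.41 to 2.54), and without ALDH_Low library 1 the log2 fold change was -0.67. Without ALDH_High library 1, which stood apart on the second component, it was -0.90 (edgeR adjusted p = 0.0164). An exact permutation test of the CPM values (two-sided) returned 0.1, and 3 against 3 libraries cannot go lower. In these bulk libraries, fewer cells with MITF RNA and less MITF RNA per cell cannot be told apart.

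The 1 of 5 tested genes that was lower (MITF) and the 0 that were higher stand beside a background in which 20.6% of the 17047 genes tested passed at an adjusted p of 0.05, 10.8% higher and 9.83% lower. The median log2 fold change of the 5 tested genes was -0.44 and that of all tested genes was -0.01, and only genes above the filter enter the former. All 5 had a log2 fold change below 0. MITF and RAB27A were the 2 genes whose groups did not overlap, both with ALDH_Low above. Over all tested genes, the groups did not overlap in 37.8%, with ALDH_Low above in 19.1%, so that non-overlap alone was common.

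RAB27A (chr15:55202966-55319113, minus strand), which recruits melanophilin and myosin Va to the melanosome, came next to MITF in level in both groups. It had 110, 171 and 129 counts in ALDH_High and 200, 183 and 180 in ALDH_Low, or 4.34, 4.95 and 3.78 CPM against 5.19, 6.12 and 6.47 CPM. The groups did not overlap, although ALDH_High library 2 and ALDH_Low library 1 were close. The log2 fold change of -0.44 (SE 0.21, 95% interval -0.90 to 0.02) did not pass the test (edgeR adjusted p = 0.170). RAB27A shares its strand with PIGBOS1 (chr15:55317184-55319161), most of which lies inside the span of RAB27A. PIGBOS1 had 202 to 329 counts and a log2 fold change of -0.02. Strand cannot separate the reads of these genes where they overlap.

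GPNMB (chr7:23235967-23275108, plus strand), a transmembrane glycoprotein of melanosomes and lysosomes, was the most abundant of the 10 genes and did not pass the test. It had 847, 1417 and 1464 counts in ALDH_High and 1783, 1316 and 1187 in ALDH_Low. Scaled for depth, these were 33.4, 41.0 and 42.9 CPM against 46.2, 44.0 and 42.7 CPM. ALDH_High library 1 was the lowest, and ALDH_High library 2 lay just below the ALDH_Low libraries. In CPM, only ALDH_High library 3 fell within the ALDH_Low range. In TPM, ALDH_High libraries 2 and 3 (25.3 and 27.1) both fell within the ALDH_Low range of 23.8 to 27.4. The means were 39.1 ± 5.03 CPM and 44.3 ± 1.81 CPM (SD, n = 3 each), and the log2 fold change was -0.18 (SE 0.13, 95% interval -0.46 to 0.10, edgeR adjusted p = 0.375). Without ALDH_High library 1 the log2 fold change of GPNMB was -0.06 (edgeR adjusted p = 0.708).

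The ratio of GPNMB to MITF was higher in each ALDH_High library than in any ALDH_Low library. MITF is the denominator of every ratio to MITF given here, so its lower level in ALDH_High enters each of them. In TPM the ratio of GPNMB to MITF was 3.29, 4.31 and 3.90 in ALDH_High and 1.84, 2.46 and 2.83 in ALDH_Low. The log2 ratio in CPM was 0.70 higher in ALDH_High (exact two-sided permutation test, p = 0.1, Benjamini-Hochberg adjusted p = 0.233 over 7 ratios to MITF, where the smallest raw p is 0.1). For RAB27A the log2 ratio to MITF was 0.44 higher in ALDH_High with overlapping groups (exact permutation p = 0.4, adjusted p = 0.70). For PMEL and GPR143 it was 0.37 and 0.10 higher, also with overlap (exact permutation p = 0.6 and 0.8).

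The order of the 10 genes can be read from TPM, which are corrected for transcript length. In ALDH_High the mean order was GPNMB (23.7 ± 4.48 TPM), MITF (6.16 ± 0.690), RAB27A (5.43 ± 0.780), PMEL, GPR143, TYRP1, DCT, MLANA, TYR and TRPM1. In ALDH_Low it was GPNMB (25.8 ± 1.80 TPM), MITF (11.3 ± 3.28), RAB27A (7.13 ± 0.676), GPR143, PMEL, TYRP1, DCT, MLANA, TYR and TRPM1 (SD, n = 3 for each). MITF and RAB27A overlapped in ALDH_High, where MITF had 5.67, 5.87 and 6.95 TPM and RAB27A 4.99, 6.33 and 4.97 TPM. In ALDH_Low they did not, with 14.9, 10.6 and 8.41 TPM for MITF and 6.35, 7.54 and 7.50 TPM for RAB27A. Below RAB27A there was a wide gap, since the next gene reached at most 0.526 TPM in ALDH_High (PMEL) and 0.616 TPM in ALDH_Low (GPR143). From there down, every gene overlapped its neighbour in both groups, so that the order of the lower 7 genes is not resolved.

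GPNMB, MITF and RAB27A together made up 96.8% to 98.6% of the summed TPM of the 10 genes in every library. That sum was 30.2 to 40.2 TPM in ALDH_High and 40.9 to 49.7 TPM in ALDH_Low. The other 7 genes summed to 0.890 ± 0.319 TPM in ALDH_High and 1.22 ± 0.114 TPM in ALDH_Low (SD, n = 3 each), with overlapping groups. MITF alone made up 17.1 ± 1.65% of the sum in ALDH_High and 24.6 ± 4.82% in ALDH_Low, without overlap. The name of the set thus describes these libraries only in part: its abundant members are MITF and 2 genes that also serve lysosomes and secretory granules, and its melanin enzymes are near 0.

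**Figure D2:**
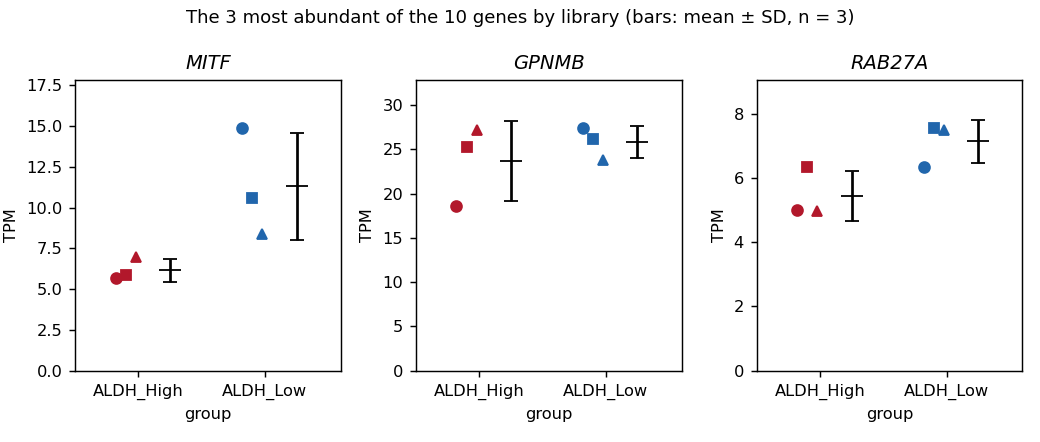
TPM of MITF, GPNMB and RAB27A in each library (1 panel per gene, circle, square and triangle for libraries 1 to 3), with the mean and SD of each group as a bar. The ALDH_High points of MITF (5.67 to 6.95 TPM) lie below all ALDH_Low points (8.41 to 14.9 TPM), and those of GPNMB overlap.

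In the authors' deposited table, which gives log2 coefficients of a 5-group model against another group, the difference between the high and low groups was -0.90 for MITF, -0.42 for RAB27A and -0.16 for GPNMB. For PMEL and GPR143 the same difference in the authors' deposited table was -0.28 and -0.66. These are the authors' values, without an error of the difference.

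MITF belongs to the MiT/TFE family, whose other members TFEB, TFE3 and TFEC bind the same E-boxes and drive lysosomal genes, under control of folliculin (FLCN) and its partners FNIP1 and FNIP2. TFE3 was the dominant paralog by level in every library, at 41.5, 39.3 and 41.2 TPM in ALDH_High and 50.5, 54.4 and 45.8 TPM in ALDH_Low. TFE3 was lower in ALDH_High (log2 fold change -0.35, SE 0.11, edgeR adjusted p = 0.0479), but the call was lost without any one of 5 libraries, all but ALDH_High library 1. TFEB had 0.851, 1.29 and 1.08 TPM against 2.70, 1.68 and 1.54 TPM. The TFEB groups did not overlap, and its log2 fold change of -0.92, close to that of MITF, did not pass the test (edgeR adjusted p = 0.0556). TFEB passed in 2 of 15 alternatives, neither of which left out a library. TFEC reached at most 0.442 TPM and had a log2 fold change of -1.19 (edgeR adjusted p = 0.157), which passed without ALDH_High library 1.

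Summed over the 4 family members, the level was 48.3, 46.6 and 49.3 TPM in ALDH_High and 68.4, 67.1 and 56.2 TPM in ALDH_Low. The sum was therefore higher in every ALDH_Low library, and MITF made up 11.7%, 12.6% and 14.1% of it in ALDH_High and 21.7%, 15.8% and 15.0% in ALDH_Low. The log2 ratio to MITF of TFE3 was 0.54 higher in ALDH_High and that of TFEB -0.0067 (exact permutation p = 0.1 and 0.9, adjusted p = 0.233 and 0.9 over the 7 ratios). FLCN was lower in ALDH_High (log2 fold change -0.52, edgeR adjusted p = 0.0327), a call lost without ALDH_High library 2, ALDH_High library 3, ALDH_Low library 1 or ALDH_Low library 2. FNIP1 and FNIP2 had log2 fold changes of -0.04 and 0.24 (edgeR adjusted p = 0.893 and 0.543). In the list of paralogs and their regulators, 2 of 6 tested genes were lower (3 without ALDH_High library 1, and 0 or 1 without any other library) and 0 higher, with a median of -0.44, beside 9.83% lower and 10.8% higher over all genes tested.

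**Figure D3:**
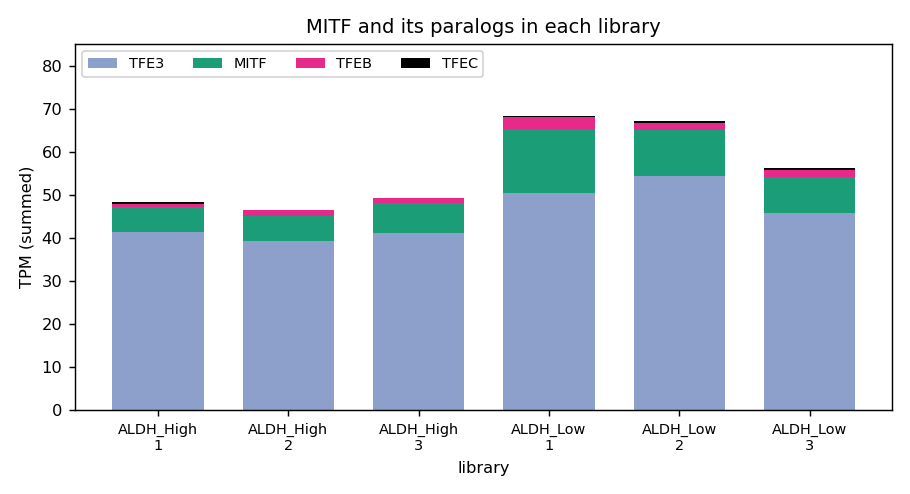
Stacked bars of the TPM of TFE3, MITF, TFEB and TFEC in each of the 6 libraries. TFE3 is the largest component in all 6 libraries, and the summed level is 46.6 to 49.3 TPM in ALDH_High and 56.2 to 68.4 TPM in ALDH_Low.

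SOX10 and LEF1, known activators of MITF, were higher in the group where MITF was lower. The counts are per gene, so RNA from the different start sites of MITF cannot be told apart in them. SOX10, the neural crest factor that binds the MITF promoter, had 447, 376 and 366 TPM in ALDH_High and 102, 116 and 116 TPM in ALDH_Low, and was higher in ALDH_High (log2 fold change 1.79, edgeR adjusted p = 3.1e-05). The ratio of SOX10 to MITF in TPM was 78.9, 64.1 and 52.7 in ALDH_High against 6.86, 10.9 and 13.8 in ALDH_Low. This ratio was the one with the widest separation of the 7, at 2.67 on the log2 scale in CPM (exact permutation p = 0.1, adjusted p = 0.233). PAX3, which acts on the MITF promoter with SOX10, had 7.59, 7.06 and 8.14 TPM against 9.56, 8.34 and 7.84 TPM and did not pass the test (log2 fold change -0.22, edgeR adjusted p = 0.359). LEF1, the Wnt effector, was higher in ALDH_High (log2 fold change 1.24, edgeR adjusted p = 0.000113), and its partner CTNNB1 was at 0.15 (edgeR adjusted p = 0.388).

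Other higher genes of the regulator list were POU3F2, also called BRN2, a factor reported to repress MITF, with 8.99, 14.3 and 16.6 TPM against 1.33, 0.967 and 1.45 TPM (log2 fold change 3.34, edgeR adjusted p = 1.2e-05), and the endothelin receptor EDNRB (log2 fold change 3.08, edgeR adjusted p = 3.6e-05). The groups of both were far apart. Lower were BHLHE40, a transcriptional repressor (log2 fold change -1.33, edgeR adjusted p = 0.00795), and TFAP2A, a factor that shares many targets with MITF (log2 fold change -0.58, edgeR adjusted p = 0.0266). The TFAP2A call was lost without any one of 5 libraries, all but ALDH_High library 3. The remaining tested genes had log2 fold changes of 0.59 for ZEB2, 0.49 for GLI2, 0.20 for GSK3B, 0.04 for CREB1, 0.01 for USF1, 0.0064 for SMARCA4, -0.03 for HIF1A and -0.10 for ATF4, and none passed the test, although GLI2 did without ALDH_High library 1. KIT, the receptor that signals to MITF in melanocytes, had 0 or 1 count in every library and was at the floor, and IRF4 had 0 to 13 counts and was not tested. In all, 4 of 16 tested regulators were higher, 2 lower and 10 did not pass, with a median of 0.09, beside 10.8% higher and 9.83% lower over all genes tested.

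**Figure D4:**
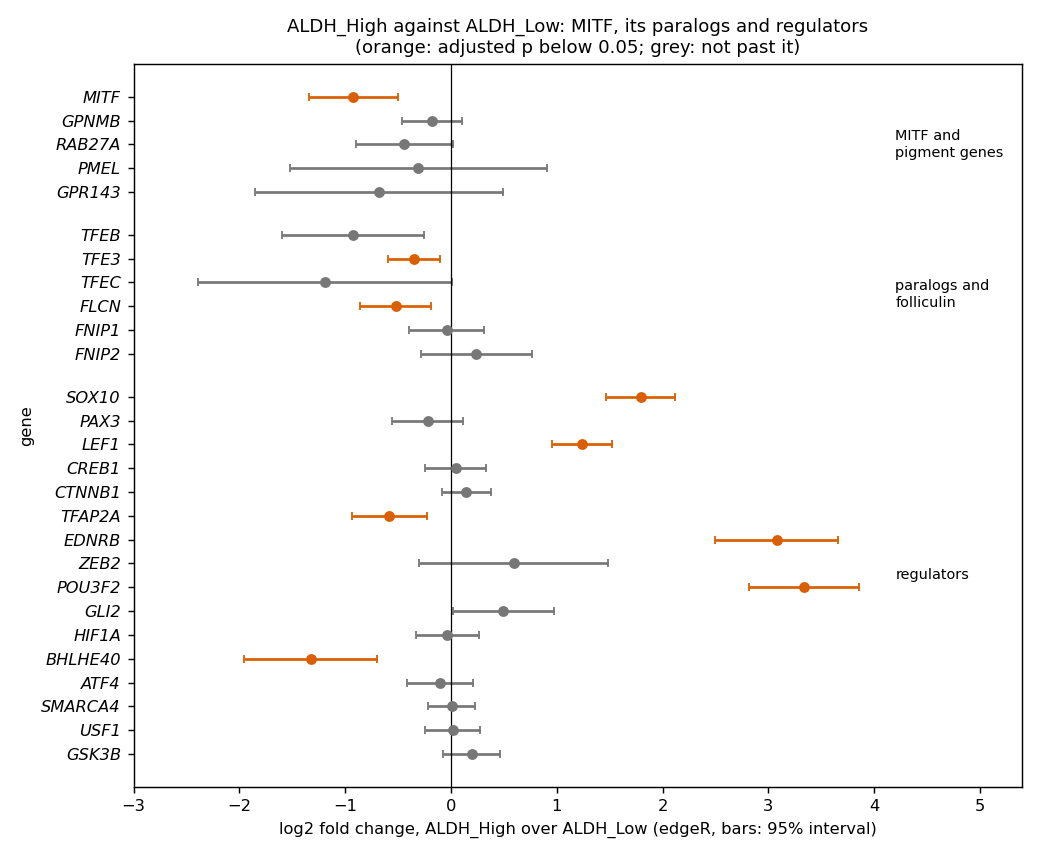
Log2 fold change (ALDH_High over ALDH_Low, x axis) with 95% intervals from edgeR for the 5 tested genes of the set, the paralogs with the folliculin genes, and the tested regulators, in orange where the adjusted p was below 0.05. Among the 5 genes at the top, MITF (-1.35 to -0.50) is the one whose interval does not reach 0, while SOX10, LEF1, EDNRB and POU3F2 lie to the right of 0.

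Of 9 genes for the transporters, channels and receptors that serve melanin synthesis, 6 were tested. In ALDH_High 2 were higher (0 without ALDH_High library 2, ALDH_Low library 2 or ALDH_Low library 3, and 1 without ALDH_High library 3 or ALDH_Low library 1), 0 were lower (1 without ALDH_Low library 1), and the median log2 fold change was 0.25. Over all genes tested, 10.8% were higher and 9.83% lower. OCA2, the melanosomal chloride channel, had 24, 32 and 20 counts in ALDH_High and 9, 10 and 11 in ALDH_Low. All 3 ALDH_High libraries were above the ALDH_Low libraries (log2 fold change 1.35, SE 0.40, edgeR adjusted p = 0.0384), but the call was lost without any one of 5 libraries, all but ALDH_High library 3. TPCN2, a channel that sets melanosome pH, was higher (log2 fold change 0.52, edgeR adjusted p = 0.0149), a call lost without ALDH_High library 2, ALDH_High library 3, ALDH_Low library 2 or ALDH_Low library 3. The copper pump ATP7A, which loads tyrosinase, had a log2 fold change of 0.63 (edgeR adjusted p = 0.0539), and the cysteine transporter MFSD12 had -0.46 (edgeR adjusted p = 0.0811). ATP7A passed without ALDH_High library 1, and MFSD12 passed without ALDH_Low library 1. The cystine carrier SLC7A11 and the melanocortin receptor MC1R were at -0.02 and -0.10. SLC45A2, SLC24A4 and SLC24A5 had 0 to 15, 1 to 39 and 0 to 1 counts and were not tested.

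All 28 genes of the machinery that builds and moves melanosomes passed the filter and were tested. MYRIP, a RAB27A effector, was the lowest at 0.168 to 0.499 TPM, and each of the others reached at least 3.25 TPM in every library. Lower in ALDH_High were 4 (6 without ALDH_High library 1, and 3 without any other library). Higher were 2 (4 without ALDH_High library 1), and 22 did not pass, with a median of -0.02. The 21.4% of this list that passed stand beside 20.6% of all genes tested. MLPH, the melanophilin that links RAB27A to myosin Va, had 8.76, 8.05 and 5.54 CPM in ALDH_High and 36.8, 31.7 and 26.0 CPM in ALDH_Low. The groups were far apart (log2 fold change -2.08, SE 0.20, edgeR adjusted p = 8.2e-05). MYO5A, the motor of the same complex, had a log2 fold change of 0.36 that did not pass (edgeR adjusted p = 0.0700), so that of RAB27A, MLPH and MYO5A only MLPH passed. AP3S1, a subunit of the adaptor that sorts cargo to melanosomes and lysosomes, had 53.2, 49.3 and 58.3 CPM against 259, 223 and 231 CPM. It was lower in ALDH_High (log2 fold change -2.15, SE 0.12, edgeR adjusted p = 4.4e-06), as was the lysosomal trafficking regulator LYST (-0.86, edgeR adjusted p = 0.00502).

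The fourth lower gene, SNAPIN of the BLOC-1 complex, is named because the count is small and was chosen after its values were seen (log2 fold change -0.35, edgeR adjusted p = 0.0481, lost without any one of 5 libraries, all but ALDH_High library 1). Higher were BACE2, a protease that cleaves PMEL (0.70, edgeR adjusted p = 0.00421), and HPS5 of the BLOC-2 complex (0.58, edgeR adjusted p = 0.00522).

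Genes reported as MITF targets outside pigmentation went in both directions. Of 32 such genes 30 were tested, of which 7 were higher in ALDH_High, 3 lower (5 without ALDH_High library 1, 1 without ALDH_High library 2) and 20 did not pass, with a median of 0.05. Over all genes tested, 10.8% were higher and 9.83% lower, and the 3 of 30 lower are near that share. TBX2, a T-box factor that represses senescence genes, had 35.9, 21.6 and 23.9 TPM in ALDH_High and 4.64, 4.95 and 4.68 TPM in ALDH_Low (log2 fold change 2.48, edgeR adjusted p = 5.3e-05). The unconventional myosin MYO1D and the sialyltransferase ST3GAL6 were also higher, by 1.56 and 1.23 on the log2 scale (edgeR adjusted p = 0.00057 and 0.0216, the latter lost without ALDH_Low library 2). MET, the hepatocyte growth factor receptor, had 19.1, 19.1 and 18.7 TPM in ALDH_High and 52.3, 48.0 and 32.6 TPM in ALDH_Low. It was lower in ALDH_High (log2 fold change -1.27, edgeR adjusted p = 0.000338), with ALDH_Low library 1 highest, the same library as for MITF. PIR and the phosphatase INPP4B were lower by smaller amounts (-0.53 and -0.51, edgeR adjusted p = 0.0238 and 0.00804). The call of INPP4B was lost without ALDH_High library 2, and that of PIR without ALDH_High library 2, ALDH_High library 3, ALDH_Low library 1 or ALDH_Low library 3.

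Among genes known to mark the MITF-low state of melanoma, more were lower than higher in ALDH_High, the group with less MITF. Of 18 tested, 9 were lower, 2 higher and 7 did not pass, with a median of -0.57. The list had 61.1% past the threshold, beside 20.6% of all genes (10.8% higher and 9.83% lower), and its 2 of 18 higher are near the share of all genes. The interleukin gene IL6 had 4, 0 and 5 counts in ALDH_High and 129, 26 and 57 in ALDH_Low (log2 fold change -4.38, edgeR adjusted p = 0.00241). TGFBI, a matrix protein, was also lower, at -1.95 (edgeR adjusted p = 5.95e-06). SOX2 and the matrix protein tenascin C (TNC) were higher, by 2.55 and 2.27 (edgeR adjusted p = 0.00018 and 4.7e-06). This list overlaps with gene groups already examined in these libraries and is not independent evidence of a direction.

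**Figure D5:**
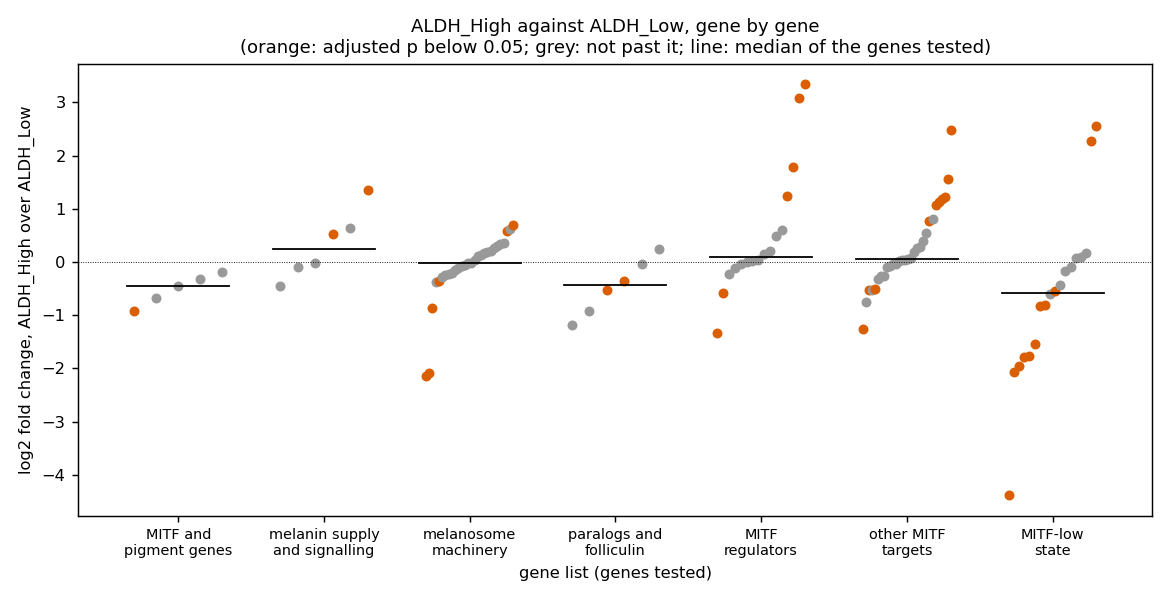
Log2 fold change (ALDH_High over ALDH_Low, edgeR) of each tested gene (point, orange where the adjusted p was below 0.05) by list, with the list median as a line. The medians run from -0.57 for genes of the MITF-low state to 0.25 for melanin supply, and all 5 tested genes of the set lie below 0.

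The genes whose pattern over the 6 libraries was most like that of MITF were sought among the 11029 genes whose CPM averaged 5 or more. Likeness was the root mean square difference of log2 CPM, each centred on its own mean over the 6 libraries. The 5 nearest were ADAMTS7 (0.08), PPP3CA (0.09), ABCC2 (0.11), PTPRK (0.12) and F2RL2 (0.13). All had higher levels in ALDH_Low, which follows from the way they were chosen and is not a separate result. ABCC2, for example, had a mean of 25.6 CPM in ALDH_High and 51.5 CPM in ALDH_Low. GPNMB and RAB27A stood at ranks 1679 and 1822 of this order, with differences of 0.41 and 0.42.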

How the data were processed

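RNA of 6 libraries was analysed, 3 per group. Per the submitters' processing notes, FastQC 0.11.3, STAR 2.5.1b, HTSeq 0.6.1 and DESeq2 were used with GRCh38; their parameters are not given in the sources used here. The authors deposited whole-number values that were treated as estimated counts rounded to whole numbers, because 133 to 177 genes per library had a count of 0 beside a TPM above 0. The authors deposited TPM values, whose gene lengths are not given in the sources used here. The deposited log2 coefficients come, per the file headers, from a DESeq2 model of 5 groups.

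Genes kept by filterByExpr (17047) were scaled with TMM and tested with edgeR 4.0.16 (quasi-likelihood F-test, two-sided, no replicate term) in R 4.3.3, with Benjamini-Hochberg adjustment over all genes tested and a threshold of 0.05. CPM use TMM-scaled library sizes. Exact permutation tests used log2(CPM + 0.1) for single genes. Alternatives were DESeq2 1.42.0 size factors and Wald test, upper-quartile factors, other filters, the replicate number as a block, limma 3.58.1 on log2(TPM + 1) or log2(TPM + 0.1), and leaving out each library.

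The 10 genes and all gene lists were chosen with earlier results of these data known. Named are the 10 genes, every regulator, paralog and melanin supply gene, the 3 called genes with the largest change in each direction of each other list, the 5 genes most like MITF, and SNAPIN. Some genes that this rule or the marker lists include are not reported here. Gene positions are those of GENCODE release 44. All listed genes were found, CCN1 and CCN2 by Ensembl identifier.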

Additional observations from a re-analysis of the deposited data

How the results depend on the processing

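MITF stayed lower in ALDH_High in all 15 alternatives and past the threshold in 14, with log2 fold changes of -1.07 to -0.67 without one library each. The exception was limma on log2(TPM + 1) with no minimum of TPM (-0.75, adjusted p = 0.109), where 0 of the 10 genes were lower. RAB27A, GPNMB, PMEL and GPR143 passed under none of the alternatives run. Over all genes, 3513 passed; that limma setting gave 2006 (1155 higher, 851 lower), an adjusted p of 0.01 gave 1930 (1060 and 870), and a required change of 1 or more on the log2 scale gave 1958 (1004 and 954). With a mean of at least 1 TPM, limma called 1047 genes lower on log2(TPM + 1) and 1051 on log2(TPM + 0.1). Without one library each, 2488 to 4221 genes passed, 1306 to 2172 higher and 1073 (without ALDH_High library 2) to 2049 lower.

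A floor of 10 counts put 4 genes at the floor in place of 3, and ranking by median TPM moved 3 of the 10 genes in ALDH_High. Upper-quartile factors moved the median of all genes to -0.06. With the replicate number as a block, 3748 genes passed, of which 3330 were shared, and MITF was at -0.89 (adjusted p = 0.00585). Deviations of same-numbered libraries correlated at 0.15, 0.08 and 0.11, each library best with its own number, which is a hint from the data and not the design, and the block therefore stayed an alternative.

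Counts of called list genes moved by at most a few. Without one library each, melanin supply had 0 to 2 higher and 0 to 1 lower, and the machinery 2 to 4 higher and 3 to 6 lower. Paralogs had 0 to 3 lower, regulators 1 to 2 lower and other targets 1 to 5 lower. Melanin supply had 1 higher with at least 10 counts in every library and in both limma fits with a TPM filter, 0 higher without it, 2 lower without the low-count filter and 1 lower with the replicate block. Paralogs had 3 lower with upper-quartile factors and with at least 10 counts in every library. They had 1 lower with DESeq2 size factors, without the low-count filter, with the replicate block and in the DESeq2 Wald test, and 0 in the 3 limma fits. Regulators had 1 lower in the limma fits with a TPM filter and 0 without it. OCA2 had 9 counts in ALDH_Low library 1 and at most 0.418 TPM. The minimum of 10 counts and the TPM filter therefore each removed it from the tested genes of melanin supply. The cause of the other shifts was not tested.

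Genes near 0 changed sign: PMEL (-0.89 to 0.13 without one library each), SLC7A11 (-0.21 to 0.17), FNIP1 (-0.15 to 0.066), HIF1A (-0.11 to 0.097), ATF4 (-0.20 to 0.030), SMARCA4 (-0.012 to 0.056) and USF1 (-0.044 to 0.083). With upper-quartile factors CREB1 was at -0.0060, SMARCA4 at -0.043 and USF1 at -0.036. In limma on log2(TPM + 1), with and without a filter, SLC7A11 was at 0.042, FNIP1 at 0.00095 and HIF1A at 0.0105, and on log2(TPM + 0.1) SLC7A11 was at 0.047 and HIF1A at 0.0105.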
